A study of Homo sapiens with 23 samples.

Results

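SVA-F is one of the youngest subfamilies of SVA retrotransposons, and the elements described here are those that lacked H3K9me3, the histone mark of repressed chromatin, in human induced pluripotent stem cells. They were taken as every interval whose name begins with SVA_F in the list of de-repressed SVAs that the study drew up, which gave 216 intervals beside 535 of the other SVA subfamilies. Of these, 190 lie on assembled chromosomes of the hg19 (GRCh37) genome and 26 on alternative haplotype contigs, 19 of chromosome 6 and 7 of chromosome 17. The same list holds 245 SVA-D and 94 SVA-E intervals. Because the list was chosen for missing H3K9me3 in a related cell type, a low share of SVA-F with H3K9me3 before induction is not independent evidence that these elements are unmarked.

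All libraries came from NCCIT, a line of human embryonal carcinoma cells with features of pluripotent stem cells. SCi-NCCIT are NCCIT that carry an integrated piggyBac cassette for doxycycline-inducible dCas9-KRAB, a catalytically dead Cas9 fused to a repressor domain, together with 2 constitutively expressed sgRNAs against SVAs. ChIP-seq for H3K9me3 was done in untransfected NCCIT (1 library), and in SCi-NCCIT without doxycycline (2 libraries) and after 72 h in 2 µg/mL doxycycline (2 libraries). YY1 ChIP-seq had 2 libraries per SCi-NCCIT condition, OCT4 ChIP-seq had 1, and RNA-seq had 3. Both conditions carried the cassette, the guides and the drug selection, and cells without guides were not treated with doxycycline, so an effect of doxycycline itself cannot be told apart from that of dCas9-KRAB. The guides also recognise LTR5Hs, a long terminal repeat of the endogenous retrovirus HERV-K, so effects on the RNA of targeting LTR5Hs and SVAs cannot be told apart. The labels do not say whether replicate ChIP libraries came from separate cultures, so p-values here measure the spread between these libraries.

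SVAs are composite retrotransposons found in apes. A full-length copy begins with a CCCTCT hexamer and an Alu-like stretch, continues through a GC-rich tandem repeat of variable length, and ends in a SINE-R, which derives from HERV-K, and a poly(A) tail. SVA-E and SVA-F are human-specific. KRAB zinc finger proteins recruit TRIM28 and the methyltransferase SETDB1 to SVAs, which places H3K9me3 on them, and YY1 and OCT4 are transcription factors that are both expressed in pluripotent cells.

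Most SVA-F intervals are fragments of an element. The median length was 590.5 bp, the shortest interval had 19 bp and the longest 2102 bp. In all, 43 were shorter than 200 bp and 35 reached 1000 bp. Intervals within 1000 bp of each other were joined into 154 insertions, of which 141 lay on assembled chromosomes, 106 of them made of a single interval. SVA_F_r94, a full-length copy on the plus strand at chr1:236549252-236551319, served as the frame for the others. It holds a 5′ segment of 364 bp, a tandem repeat of 1182 bp and a 3′ segment of 522 bp that contains the SINE-R and the tail. Of 190 intervals on assembled chromosomes, 189 aligned to it, 94 of them on the minus strand. At least 100 bases of the 3′ segment were present in 80 intervals (42.1%), 97 (51.1%) held the tandem repeat with fewer than 100 bases of either other segment, and 11 held the 5′ segment without the 3′ segment. The 97 are called tandem repeat fragments below, and 15 of them reach into a neighbouring segment, by at most 39 bases of the 5′ or 60 bases of the 3′ segment. The other 2 were too short or unaligned. Among SVA-D intervals the 3′ segment was present in 147 of 196 (75.0%).

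The deposited peak lists held between 123014 and 181332 H3K9me3 peaks, between 56370 and 115673 YY1 peaks, and 50775 OCT4 peaks without doxycycline against 23352 with it. They give no read depth, so the depth behind each share is unknown, and intervals given below are 95% Wilson intervals that cover counting error over elements only. The study kept only reads above a mapping quality of 10. The paper names mappability as a possible reason for missing marks at some SVAs. How well reads map to each subfamily was not tested here. A lower share of SVA-F with a peak therefore cannot be told apart from fewer uniquely mapping reads. The H3K9me3 library of replicate 1 without doxycycline stood apart from that of replicate 2, with peaks at 225 of all SVAs on the list against 52. Counts of gained H3K9me3 are therefore also given without that library, a choice made after seeing the data.

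The first question was whether SVA-F elements carried H3K9me3 before induction and took it up once dCas9-KRAB was expressed. In untransfected NCCIT, 5 of 216 SVA-F intervals overlapped an H3K9me3 peak by at least 1 bp (2.3%, interval 1.0 to 5.3). The number was 0 when at least 50% of the interval had to be covered and 14 when intervals were extended by 500 bp on each side. Without doxycycline, replicate 1 listed a peak at 71 intervals (32.9%, 27.0 to 39.4) and replicate 2 at 13 (6.0%, 3.6 to 10.0). With doxycycline, the numbers were 87 (40.3%, 34.0 to 46.9) in replicate 1 and 41 (19.0%, 14.3 to 24.7) in replicate 2. The labels number only the second library of each antibody, so the first was called replicate 1 here, and pairing the libraries by replicate rests on that assigned number. Paired so, the count was higher with doxycycline in both replicates, by 16 intervals or 1.23-fold in replicate 1 and by 28 intervals or 3.15-fold in replicate 2. The conditions nevertheless overlapped, because 71 in the first library without doxycycline exceeded 41 in the second library with it. The means were 42.0 ± 41.0 and 64.0 ± 32.5 intervals (SD, n = 2 each), a difference of 22.0 that was smaller than the spread between replicates (two-sided exact permutation test, p = 0.67, where 2 libraries against 2 cannot give less than 0.33).

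**Figure D1:**
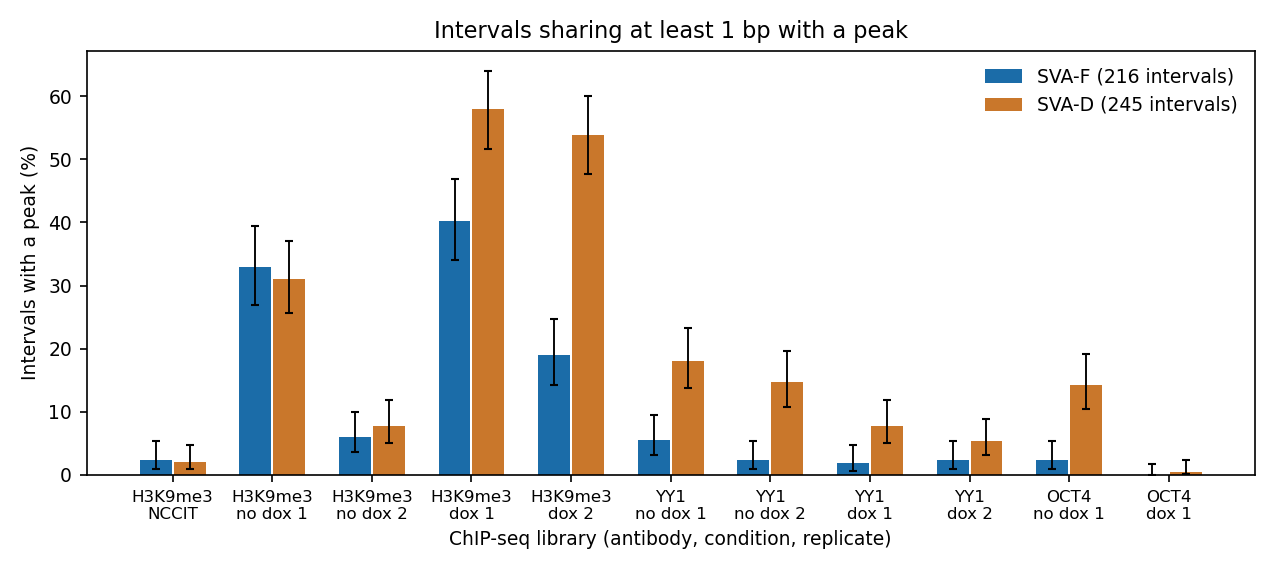
Percent of SVA-F (blue, 216 intervals) and SVA-D (orange, 245 intervals) that share at least 1 bp with a peak, for each of the 11 ChIP-seq libraries, with 95% Wilson intervals as error bars. SVA-F stood at 32.9% without and 40.3% with doxycycline in H3K9me3 replicate 1 and at 6.0% and 19.0% in replicate 2, and was below SVA-D in both libraries with doxycycline.

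SVA-D stood at 76 and 19 of 245 intervals without doxycycline (31.0% and 7.8%) and at 142 and 132 with it (58.0% and 53.9%), which did not overlap. The SVA-D share minus the SVA-F share was -1.8 and 1.7 percentage points without doxycycline and 17.7 and 34.9 points with it. That difference between subfamilies was 26.4 points larger with doxycycline, in the same direction in each replicate, with the smallest p the design allows (two-sided exact permutation test over the 4 libraries, p = 0.33). Among intervals that hold the 3′ segment the 4 differences were -4.2, -4.9, 16.8 and 29.6 points, so the gap was also present when SVA-F and SVA-D fragments of that kind were compared (27.8 points larger with doxycycline, exact permutation p = 0.33). Without replicate 1 of the untreated condition, the gap was 24.6 points larger with doxycycline over all intervals and 28.1 points larger over those with the 3′ segment, with no test.

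Read interval by interval, 120 of 216 SVA-F had no H3K9me3 peak in any of the 4 SCi-NCCIT libraries. The most frequent other pattern was a peak in both libraries of replicate 1 and in neither of replicate 2, in 37 intervals. A further 14 had a peak in replicate 1 without doxycycline and in both libraries with it, and 9 had one in all 4. Gain of H3K9me3 was scored strictly, as a peak in the 2 treated libraries and in neither untreated one. It was met by 17 SVA-F intervals in 16 insertions (7.9%, interval 5.0 to 12.2), against 136 of all SVAs on the list, a background of 18.1%. The SVA-F share was below that background, and 64 of 245 SVA-D (26.1%, 21.0 to 32.0) and 8 of 94 SVA-E (8.5%, 4.4 to 15.9) met the same rule. A single SVA-F interval went the other way, with a peak in both libraries without doxycycline and in neither with it. The count depended on the library that stood apart, since without replicate 1 of the untreated condition 31 SVA-F intervals gained H3K9me3 (14.4%), beside 104 SVA-D (42.4%) and 225 of all SVAs (30.0%). Across the whole set, 116 SVA-F (53.7%) had no peak in any of the 11 lists, compared with 87 SVA-D (35.5%) and 332 of all SVAs (44.2%).

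Peak height was compared where both libraries of a replicate had a peak. Fold enrichment is the authors' value at the peak summit. In replicate 1, 63 SVA-F intervals had a median fold enrichment of 5.87 without doxycycline and 6.74 with it, and 39 of the 63 were higher with doxycycline. In replicate 2 there were 9 such intervals, with medians of 5.41 and 7.04, and all 9 were higher. For SVA-D in replicate 1 the medians over 74 intervals were 5.36 and 9.63, with 63 higher. In replicate 2 the SVA-D medians over 18 intervals were 4.3 and 7.63, with 16 higher. SVA-F intervals with a peak with doxycycline only had median values of 6.26 in replicate 1 (24 intervals) and 7.48 in replicate 2 (32 intervals). For SVA-D these were 8.52 (68 intervals) and 7.33 (114 intervals), so SVA-D was higher in replicate 1 only.

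The 17 SVA-F that gained H3K9me3 are named with their fold enrichment in replicate 1 and then replicate 2 with doxycycline. Of their 34 summits with doxycycline, 11 lay inside the interval and 23 outside it, so the values often belong to a peak centred outside the interval. Of the 34, 15 could be placed on the aligned element. The tallest pairs belonged to SVA_F_r131 at chr2:109343089-109343685, in an intron of RANBP2, a nucleoporin of the cytoplasmic face of the nuclear pore, with 11.56 and 13.20. SVA_F_r292 at chr5:40800498-40800867, in an intergenic position, had 13.60 and 9.80. SVA_F_r864 at chr17:36409413-36410047, in an intron of the pseudogene NPEPPSP1, had 8.45 and 12.92. The summits of SVA_F_r131 lay 2 and 162 bp outside the interval, those of SVA_F_r292 5 and 432 bp outside it, and that of SVA_F_r864 lay 475 bp outside in replicate 1 and inside in replicate 2.

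SVA_F_r327 at chr5:170574766-170575411, in an intron of RANBP17, a member of the exportin family, had 12.15 and 8.22. SVA_F_r130 at chr2:105825915-105826121, in an intergenic position, had 12.04 and 7.33, at summits 1581 and 63 bp outside the interval. SVA_F_r822 at chr16:19014664-19015375, in an intron of TMC7, a transmembrane channel-like gene, had 10.60 and 7.63. In each of these the first replicate was the higher of the pair. The reverse held for SVA_F_r669 at chr11:66989541-66990140 in an intron of KDM2A, a histone H3K36 demethylase, with 5.67 and 12.54 at summits 621 and 429 bp outside the interval, and for SVA_F_r92 at chr1:220046145-220046617 in an intron of the manganese transporter SLC30A10, with 5.30 and 12.32. SVA_F_r935 at chr19:55510400-55510527, a fragment of 128 bp in an intron of NLRP2, had 7.63 and 9.91. The remaining 8 (SVA_F_r866, SVA_F_r991, SVA_F_r632, SVA_F_r633, SVA_F_r381, SVA_F_r832, SVA_F_r96 and SVA_F_r608) ran from 3.81 to 12.95, and SVA_F_r632 and SVA_F_r633 belong to a single insertion in SORCS3.

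The 5 SVA-F intervals with H3K9me3 in untransfected NCCIT had a peak in 2 to 4 of the 4 SCi-NCCIT libraries. The NCCIT summit lay inside the interval in SVA_F_r885 alone, and 20 to 757 bp outside it in the other 4. SVA_F_r229, in CFAP92 on chromosome 3, had a fold enrichment of 5.64 in NCCIT, 5.78 and 5.41 without doxycycline, and 7.59 and 6.52 with it. SVA_F_r475 likewise had a peak in all 5 libraries, with 4.77, then 9.22 and 6.21, then 6.74 and 7.63. SVA_F_r885 on chromosome 18 reached 17.49 in replicate 1 without doxycycline from 3.30 in NCCIT and had no peak in replicate 2 with doxycycline. SVA_F_r400 and SVA_F_r554 lacked a peak in 2 libraries and 1 library of SCi-NCCIT, respectively. These members were marked before doxycycline, so none could meet the rule for gain.

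The second question was whether YY1 and OCT4 occupied SVA-F and left upon repression. Without doxycycline, 12 of 216 SVA-F intervals (5.6%) had a YY1 peak in replicate 1 and 5 (2.3%) in replicate 2. With doxycycline, 4 (1.9%) and 5 (2.3%) had one. The means were 8.5 ± 4.9 and 4.5 ± 0.7 (SD, n = 2 each), a difference of -4.0 that was within the spread between the libraries (two-sided exact permutation test, p = 0.67). Within replicate 1 the number was lower by 8 with doxycycline, and within replicate 2 it was 5 in both conditions. A YY1 peak in both libraries without doxycycline and in neither with it was found at 2 SVA-F intervals (0.9%, interval 0.3 to 3.3), SVA_F_r131 and SVA_F_r327, against 21 of all SVAs on the list (2.8%) and 15 SVA-D (6.1%, 3.7 to 9.9). That count of 2 was 1 with at least 50% of the interval covered, 8 when a peak in either replicate was enough, 4 without replicate 1 and 8 without replicate 2. OCT4 peaks were listed at 5 SVA-F intervals (2.3%) without doxycycline and at 0 of 216 with it (upper bound 1.7%). OCT4 had 1 library per condition and so no replicate check, and its list with doxycycline was also the shorter one overall. The difference of -5 was -1 when both OCT4 lists were cut to equal size, when a −log10 q of at least 5 was required, and when at least 50% of the interval had to be covered.

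A YY1 peak in both libraries without doxycycline was listed at 4 members. Among them SVA_F_r864 had the tallest YY1 peaks, with fold enrichments of 13.72 and 10.69 without doxycycline. They were 7.56 and 5.17 with it. This member was picked for its height without doxycycline, so its lower values with doxycycline are not evidence of lost binding. The median height over the whole YY1 lists was 5.32 and 5.38 without doxycycline and 5.14 and 5.19 with it. SVA_F_r131 had 7.98 and 8.11 and no YY1 peak with doxycycline. SVA_F_r327 had 6.70 and 6.18 and likewise no peak with doxycycline. The fourth, SVA_F_r986 at chr22:40896396-40897378 in an intron of MRTFA, a coactivator of serum response factor, had 5.32 and 4.79, and 6.00 in replicate 1 with doxycycline. It carried H3K9me3 in replicate 1 without doxycycline (3.82), which kept it out of the gained class, and had 4.34 and 4.69 with doxycycline. OCT4 peaks without doxycycline were at SVA_F_r866 (8.15), SVA_F_r582 at chrX:132400456-132400545 (4.58), SVA_F_r92 (4.57), SVA_F_r327 (4.34) and SVA_F_r864 (4.27). The last 2 were the members with both YY1 and OCT4.

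Gain of H3K9me3 was set beside this occupancy. Of 16 SVA-F intervals with a YY1 or OCT4 peak in any library without doxycycline, 10 gained H3K9me3 (62.5%), and of the 200 without such a peak 7 did (3.5%). On assembled chromosomes the latter share was 7 of 174 (4.0%). Among SVA-D the corresponding numbers were 32 of 60 (53.3%) and 32 of 185 (17.3%), and among all SVAs on the list 74 of 131 (56.5%) and 62 of 620 (10.0%). Without replicate 1 of the untreated condition they were 12 of 16 (75.0%) and 19 of 200 (9.5%) for SVA-F, and 103 of 131 (78.6%) and 122 of 620 (19.7%) for all SVAs. These are counts over elements of 1 genome and not over replicates. Whether reads map equally well to elements with and without such a peak was not tested. The 6 with a factor that did not gain H3K9me3 were SVA_F_r283, SVA_F_r539 and SVA_F_r986, which had H3K9me3 in at least 1 library of each condition, and SVA_F_r27, SVA_F_r42 and SVA_F_r582, which had none in any.

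The elements that gained H3K9me3 were next described by the part of the SVA they hold. Of 80 SVA-F intervals with at least 100 bases of the 3′ segment, 13 gained H3K9me3 (16.2%, interval 9.7 to 25.8). Of the 110 on assembled chromosomes without it, 4 did (3.6%, 1.4 to 9.0). Without replicate 1 of the untreated condition the numbers were 25 of 80 (31.2%) and 6 of 110 (5.5%). In SVA-D the shares were 48 of 147 (32.7%, 25.6 to 40.6) and 16 of 49 (32.7%, 21.2 to 46.6), but all 16 were among 35 intervals too short to align or unaligned, and 0 of the other 14 without the 3′ segment gained H3K9me3. The older subfamilies had 14 of 35 with and 0 of 12 without the 3′ segment in SVA-A, 23 of 69 and 0 of 11 in SVA-B, and 10 of 27 and 0 of 2 in SVA-C, while SVA-E had 5 of 56 and 3 of 37. The 3 in SVA-E were among 18 intervals too short to align or unaligned, and 0 of the other 19 without the 3′ segment gained H3K9me3. A lower share without the 3′ segment was therefore not particular to SVA-F. Counted as insertions, 13 of 78 SVA-F with a 3′ segment and 3 of 63 without one held an interval that gained H3K9me3. The 4 tandem repeat fragments of SVA-F that gained H3K9me3 (SVA_F_r866, SVA_F_r935, SVA_F_r292 and SVA_F_r632) all had another listed SVA within 1000 bp, of another subfamily in 3 cases. Such a neighbour was absent for 41 of the 97 tandem repeat fragments.

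The single libraries were read in the same way. H3K9me3 peaks lay at 36 and 11 of the 80 intervals with a 3′ segment without doxycycline and at 47 and 34 with it. Of the 97 tandem repeat fragments, 28 and 2 had a peak without doxycycline and 32 and 7 with it. In replicate 2, where few elements were marked before induction, intervals with the 3′ segment thus went from 13.8% to 42.5% and tandem repeat fragments from 2.1% to 7.2%. YY1 peaks without doxycycline lay at 9 and 4 of the 80 and at 3 and 1 of the 97.

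Peak summits were placed on the frame. Of 12 and 5 YY1 summits without doxycycline in replicates 1 and 2, 10 and 4 could be placed. Those of SVA_F_r27, SVA_F_r96 and SVA_F_r292 could not. Of the 14 placed, 13 lay within 150 bp of the boundary between the tandem repeat and the 3′ segment. They were at frame positions 1423 to 1607 (the boundary follows position 1546). Within the tandem repeat, whose words recur, a position is that of the best alignment and is approximate. These 13 came from 9 intervals in 8 insertions, because 4 intervals were counted in both libraries and SVA_F_r632 and SVA_F_r633 share a peak. With doxycycline 5 of the 7 placed lay within 150 bp of the boundary, from 4 insertions. H3K9me3 summits lay along the whole element. In replicate 1, 39 of 66 summits without doxycycline and 51 of 83 with it fell in the tandem repeat. In replicate 2, 9 of 13 summits without doxycycline and 32 of 41 with it could not be placed on the frame. The numbers were 22 of 66 and 22 of 83 in replicate 1 and 3 of 5 in NCCIT. Only 600 bp on each side of an interval were aligned, so a summit farther away could not be placed in any case. Inside the interval itself lay 26 of 66 and 32 of 83 summits in replicate 1, 1 of 13 and 6 of 41 in replicate 2, and 1 of 5 in NCCIT. In all 5 H3K9me3 libraries an overlap thus mostly marked a peak whose summit was beyond the interval. The OCT4 summits were at frame position 273 in SVA_F_r582, 1461 in SVA_F_r864, 1894 in SVA_F_r327 and 2039 in SVA_F_r92, with no common position.

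The letters ATGGCGGC, which contain the core of the YY1 motif, or their complement GCCGCCAT were found in 84 of 190 SVA-F intervals (44.2%) and in 61 of the 80 with the 3′ segment (76.2%), against 40 of 147 SVA-D with the 3′ segment (27.2%). Of the 9 intervals with the 3′ segment and a YY1 peak without doxycycline 7 held the letters, and of the 13 that gained H3K9me3 7 did. SVA_F_r131 and SVA_F_r327, whose intervals do not hold the letters, had YY1 peaks in both libraries without doxycycline. Shares over whole intervals cannot be set beside shares over windows of fixed size, because intervals differ in length. In windows of 300 bp at the YY1 summits of SVA-F, counted per interval, the letters were found in 7 of 12 and 2 of 5 without doxycycline. With it they were found in 2 of 4 and 2 of 5. Over the whole genome, such windows at YY1 summits held them in 3.8% to 5.2%. In promoters of 300 bp from RefSeq (GRCh38.p14, 35116 promoters) the share was 3.0%. The octamer ATGCAAAT or its complement ATTTGCAT, bound by OCT4, was found in 0 of 190 SVA-F intervals and in 0 of 445 of the other SVAs. In windows of 300 bp at OCT4 summits without doxycycline it was found in 0 of 5 at SVA-F and in 11.9% over the whole genome. Of the promoters 1.8% held it. A match or its absence says only whether these letters are present.

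By length, 1 of 43 intervals under 200 bp on assembled chromosomes gained H3K9me3, 7 of 48 from 200 bp to under 500 bp, 9 of 71 from there to under 1000 bp and 0 of 28 of 1000 bp or more. Without replicate 1 of the untreated condition these counts were 1, 8, 20 and 2. SVA-D of 1000 bp or more gained it in 2 of 55, or in 21 without that library, and the shortest SVA-D did so in 17 of 36 either way. The longest SVA-F were often already marked: 15 of 28 had a peak in replicate 1 without doxycycline and 17 of 28 in replicate 1 with it, while in replicate 2 the numbers were 4 and 5. No YY1 peak was listed at these 28 in any library.

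By position, 12 of the 190 intervals lay in exons. Of the rest, 16 lay within 1000 bp of a transcription start site (TSS), then 85 in introns and 77 between genes. The start of every annotated transcript counted as a TSS, so a TSS need not be the main start of its gene. In this order 2, 0, 13 and 2 gained H3K9me3, or 2, 2, 23 and 4 without replicate 1 of the untreated condition. Among all SVAs of the list on assembled chromosomes, 8 of 30, 7 of 44, 69 of 291 (23.7%) and 52 of 270 (19.3%) did. Without that library these were 9, 14, 117 (40.2%) and 84 (31.1%). In SVA-D, 33 of 94 intronic and 24 of 79 intergenic intervals gained it. Both exonic intervals that gained it also lay within 1000 bp of a TSS, which made 2 of 22 for all intervals at that distance. With doxycycline in replicate 2, 28 of 85 intronic intervals (32.9%, 23.9 to 43.5) and 8 of 77 intergenic ones (10.4%, 5.4 to 19.2) had a peak, from 6 in each class without it. In protein-coding genes, 58 of 85 intervals with an orientation (68.2%) ran antisense to the gene, and 109 of 157 of the other SVAs did (69.4%). Among the antisense SVA-F 7 gained H3K9me3 and among the 27 in sense 5 did.

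On haplotype contigs a peak was listed at 7 of the 26 SVA-F intervals, all for H3K9me3 in replicate 1. There were 5 without doxycycline (19.2%) and 4 with it (15.4%), with fold enrichments from 3.82 to 6.36. SVA_F_r1014, SVA_F_r1015, SVA_F_r1018, SVA_F_r1019 and SVA_F_r1020 lie on a contig of chromosome 17, and SVA_F_r1003 and SVA_F_r1004 on a contig of chromosome 6. The reference used here holds no sequence of these contigs, so their intervals were not aligned or annotated. None of the 26 gained H3K9me3.

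The third question was whether genes near SVA-F changed in the RNA. The RNA libraries held between 14683468 and 47862394 estimated counts on genes. In bulk RNA, fewer cells of a type and less RNA per cell cannot be told apart. CPM are counts scaled to the library size after TMM adjustment. The KRAB domain of ZNF10 is the usual source of the repressor in dCas9-KRAB. ZNF10 had 10.0, 11.8 and 10.7 CPM without doxycycline and 362, 374 and 459 with it. Reads of the endogenous gene and of the transgene were not separated. Of 16371 genes tested with edgeR's quasi-likelihood test, 2858 (17.5%) passed a Benjamini-Hochberg adjusted p of 0.05, of which 1389 (8.48%) were lower and 1469 (8.97%) higher with doxycycline. Of 10 pluripotency genes 6 fell, beside 8.48% of all genes, among which NANOG dropped by 0.57 and TDGF1 by 1.13 on the log2 scale, while POU5F1, which encodes OCT4, and YY1 itself did not pass (-0.12 and -0.10).

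The gene with the nearest TSS, of any annotated transcript, was assigned to each SVA-F interval on assembled chromosomes, at a median distance of 8140.0 bp. This gave 143 genes, of which 64 had enough counts to be tested. Of the 64, 15 passed (23.4%), beside 17.5% of all genes, with 11 lower against a background of 8.48% and 4 higher against 8.97%. The median log2 fold change over all 64 was -0.12. Without replicate 2 of the untreated condition 8 of 66 nearest genes were called (7 lower, 1 higher), or 12.1% beside 8.8% of all genes. Length-scaled counts were rebuilt from TPM with 1 mean transcript length per gene. With them 10 of 64 were called (9 lower, 1 higher), or 15.6% beside 11.6% of all genes. Nearest genes of SVA-D had 25 of 83 called, 23 lower and 2 higher. By distance, 3 of 23 genes under 5 kb were called, 12 of 42 from 5 to 50 kb and 0 of 2 farther away.

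ABCC2, which encodes a transporter that exports conjugated bilirubin from hepatocytes, fell the most among them. It had 2.45, 2.30 and 1.74 CPM without doxycycline and 0.200, 0.105 and 0.213 with it (log2 fold change -3.61 ± 0.29 SE, adjusted p = 7.35e-05, edgeR). With length-scaled counts the change was smaller, at -1.72, and still passed. SVA_F_r623, in an intron of ABCC2, had H3K9me3 in 3 of the 4 libraries, 2 of them without doxycycline (13.04 and 4.04, then 9.15 in replicate 1 with it), and no YY1 or OCT4 peak.

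CORO1A, an actin-binding protein of the coronin family, had 6.54, 5.65 and 4.48 CPM without doxycycline and 1.04, 0.984 and 1.21 with it (-2.34 ± 0.18, adjusted p = 4.55e-05, edgeR). Its SVA-F, SVA_F_r830, lies 11897 bp from the TSS and had H3K9me3 in replicate 1 of each condition only (3.50 and 8.67). SLC30A10 had 1.77, 1.86 and 1.46 CPM and then 0.578, 0.733 and 0.574 (-1.42 ± 0.21, adjusted p = 0.00238, edgeR). It holds SVA_F_r92, which gained H3K9me3 and had OCT4 without doxycycline, 45755 bp from the TSS. The groups did not overlap for any of these 3 genes. They were named because they passed the test in these same libraries, so that separation is no further support.

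Among the other genes that fell, ADAMTS14, a procollagen-processing metalloproteinase, dropped by 1.11 on the log2 scale. Its intronic SVA_F_r604 had H3K9me3 of 4.77 without doxycycline in replicate 1 and of 7.71 and 5.36 with it. NLRP2, a member of the NLR family expressed in oocytes and early embryos, had 151, 154 and 117 CPM without doxycycline and 91.7, 109 and 98.0 with it (-0.50 ± 0.11, adjusted p = 0.0132, edgeR), and holds SVA_F_r935, which gained H3K9me3. Without replicate 2 of the untreated condition NLRP2 no longer passed, at a log2 fold change of -0.42. TRIML2, ZZZ3 and SLMAP dropped by 0.51, 0.34 and 0.25, and the splicing factor SRSF10, the chromatin reader ZMYND8 and the HMG-box gene TOX2 by 0.52, 0.42 and 1.38. ZZZ3 no longer passed without untreated replicate 2 or 3 (-0.33 and -0.30). SLMAP no longer passed without untreated replicate 2 or 3 or treated replicate 1 or 2 (-0.20 to -0.25). TOX2 passed on leaving out treated replicate 1 only, and had -1.25 to -1.51 without each of the others. With length-scaled counts ZZZ3, SLMAP and TOX2 did not pass (-0.20, -0.28 and -1.45). No peak of any antibody was listed at the SVA-F nearest to SRSF10, ZMYND8 or TOX2.

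Of the 4 that rose, STON1-GTF2A1L, a readthrough gene whose transcripts share exons with STON1 and GTF2A1L and cannot be assigned with certainty, had 2.11, 3.03 and 3.09 CPM without doxycycline and 8.53, 9.53 and 9.76 with it (1.71 ± 0.14, adjusted p = 6.19e-05, edgeR). Its SVA_F_r117 had H3K9me3 in replicate 1 of each condition (7.63 and 9.63). PLA2G6, a phospholipase, rose by 0.31, HIGD1A, a mitochondrial protein of the hypoxia response, by 0.22 and STIP1, a co-chaperone of HSP70 and HSP90, by 0.18. These 3 calls were lost on leaving out single libraries. PLA2G6 lost its call without untreated replicate 2 or 3 or treated replicate 1 (0.26 to 0.29), and STIP1 without those or treated replicate 2 (0.17 to 0.18). HIGD1A kept its call only without treated replicate 1, and had 0.18 to 0.24 without each of the others. None of the 3 passed with length-scaled counts (0.16 for PLA2G6, 0.22 for HIGD1A and 0.18 for STIP1), which left STON1-GTF2A1L as the only nearest gene that rose. The SVA-F nearest to these 3 had no peak in any list.

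**Figure D2:**
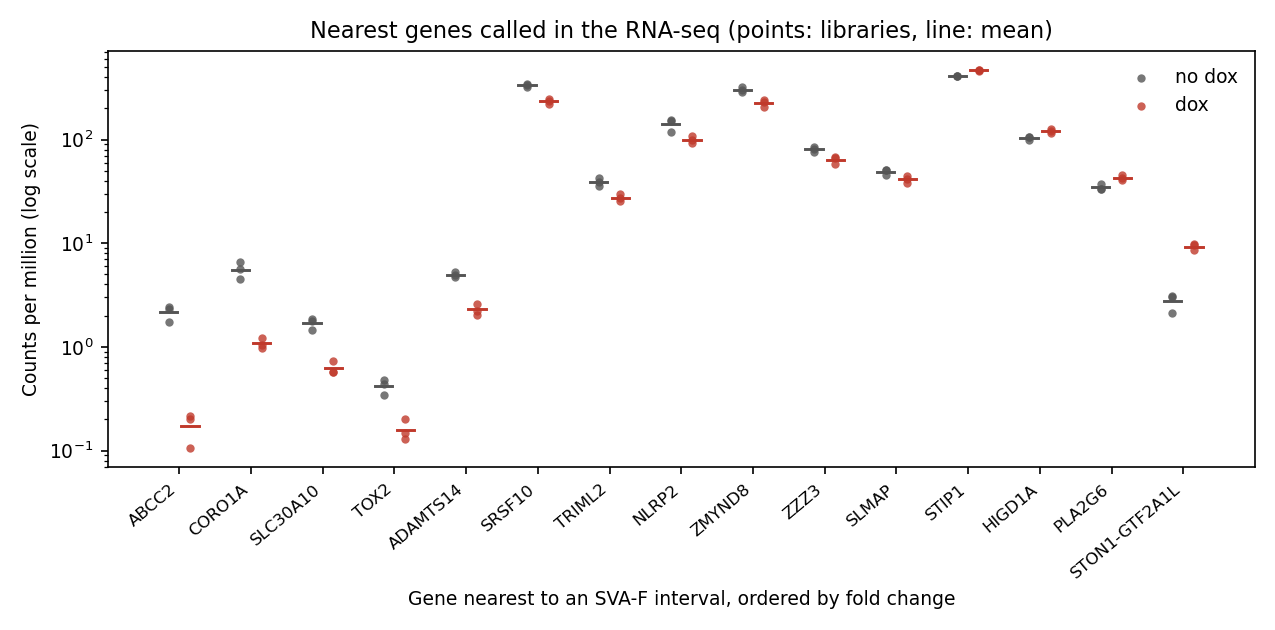
CPM on a log scale for the 15 nearest genes of SVA-F that passed the RNA-seq test, with 3 libraries without doxycycline (grey points) and 3 with it (red points) and a line at each mean. ABCC2, CORO1A and SLC30A10 lie well below their untreated level and STON1-GTF2A1L well above, and from SRSF10 to PLA2G6 the log2 fold changes lie between -0.52 and 0.31.

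The genes nearest to SVA-F that gained H3K9me3 numbered 16, of which 7 were tested and 2 fell, SLC30A10 and NLRP2. Over all genes tested, 8.48% were lower and 8.97% higher. The median log2 fold change of the 7 was -0.35. Of 58 tested genes nearest to SVA-F that did not gain it, 9 fell and 4 rose (median -0.10). With gain scored without replicate 1 of the untreated condition, 4 of 13 fell and 0 rose (median -0.25), against 7 and 4 of 53 (median -0.05). For SVA-F with YY1 or OCT4 without doxycycline 3 of 7 tested genes fell (SLC30A10, TRIML2 and ZZZ3), and for those with no peak in any list 3 of 29 fell and 3 rose. The counts of the latter are near the shares over all genes. RANBP2, next to SVA_F_r131, had 243, 307 and 287 CPM without doxycycline and 181, 219 and 256 with it, which overlapped (-0.35 ± 0.12, adjusted p = 0.0818, edgeR). RANBP17, next to SVA_F_r327, had 19.2, 23.7 and 21.3 and then 15.6, 17.4 and 19.6 CPM (-0.29 ± 0.10, adjusted p = 0.0803, edgeR). Neither passed, although both did without untreated replicate 1 (-0.44 and -0.36) or treated replicate 3 (-0.48 and -0.38). MRTFA, which holds SVA_F_r986 and SVA_F_r991, was at 45.0, 39.7 and 43.4 and then 41.5, 40.3 and 44.0 CPM (-0.02 ± 0.06, adjusted p = 0.839, edgeR).

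Genes that hold an SVA-F were counted as well. Of 93 such genes 63 were tested and 19 called (30.2%, beside 17.5% of all genes), 12 lower and 7 higher against backgrounds of 8.48% and 8.97%. Of the 10 tested that hold an SVA-F with gained H3K9me3, 5 fell, among them SLC30A10, NLRP2 and TMC7, and of the 54 that hold one without the gain 7 fell and 7 rose. With gain scored without replicate 1 of the untreated condition these were 6 lower and 1 higher of 18, and 6 lower and 7 higher of 49. TMC7 had 18.8, 24.0 and 21.9 CPM without doxycycline and 10.2, 9.38 and 10.4 with it (-1.12 ± 0.10, adjusted p = 9.81e-05, edgeR). ORC6, a subunit of the origin recognition complex, was at 66.0, 68.0 and 74.7 and then 69.2, 72.9 and 76.0 CPM (0.06 ± 0.06, adjusted p = 0.554, edgeR). SVA_F_r832 lies at an exon 317 bp from the nearest start of any annotated transcript, which need not be the main start of ORC6.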

How the data were processed

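Peak lists and transcript tables were used as deposited, from 11 ChIP-seq and 6 RNA-seq libraries. According to the methods of the study, ChIP reads were trimmed with TrimGalore!, mapped to hg19 with BWA MEM, kept at a mapping quality above 10 and freed of duplicates, and the authors called peaks per library at a 5% false discovery rate. The peak caller is not given in the sources used here. The deposited peak lists give a fold enrichment (a ratio over background) and a −log10 q-value for each peak, with no read depth. The deposited RNA tables hold, for each transcript, the estimated counts and the TPM that the authors obtained with kallisto. The table of 6 HiChIP samples was not used, because its 16 value columns name no condition.

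Intervals came from the study's list of de-repressed SVAs, which was selected on H3K9me3 in induced pluripotent stem cells. An interval had a peak where both shared at least 1 bp, and its value is the highest fold enrichment. Conditions were compared over libraries with a two-sided exact permutation test. SVA-F sequence from GRCh37 was aligned to SVA_F_r94 with blastn 2.17.0. The tandem repeat of SVA_F_r94 was taken to run from the first to the last word of 14 bases that recurs in it. The element sequences themselves are not reported here. Per-gene sums of the estimated counts used GENCODE release 44 mapped to GRCh37 (88.2% of 188753 transcripts placed, holding 95.85% to 95.96% of counts) and were rounded, filtered with filterByExpr, scaled by TMM and tested with edgeR 4.0.16 (R 4.3.3). Python 3.11.15, pandas 2.3.3, scipy 1.17.1 and bedtools 2.31.1 were used. Replicate RNA libraries differed beyond sampling noise (chi-square per gene 7.43 to 14.6). On simulated counts for 16182 genes, 87 of 97 with a log2 change of 1 and 56 of 97 with one of 0.5 were recovered, with 15 false among 158 calls. Named genes were every called gene nearest to an SVA-F interval, the genes nearest to intervals with YY1 in both untreated libraries or OCT4, and fixed lists of pluripotency, KRAB and H3K9 genes. Genes holding an interval were added after their values were seen. Named intervals were the tallest with YY1, OCT4 or gained H3K9me3, those marked in NCCIT and those on haplotype contigs with a peak. The members, lists and rules were chosen with earlier results of these data known. Alternatives covered peak height, overlap, interval length, insertions as units, equal numbers of peaks, count filters, scaling, DESeq2 1.42.0, length-scaled counts, a replicate block and leaving out each library.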

Additional observations from a re-analysis of the deposited data

How the results depend on the processing

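The peak lists give no depth, so an element without a peak was not shown to be unmarked, and 2 libraries a condition cannot reach p below 0.33. The H3K9me3 difference of 22.0 intervals was higher with doxycycline under every alternative run (16 to 28 when a replicate was left out). The YY1 difference of -4.0 ranged from -8 to 0 when a replicate was left out. The gained count of 17 ranged from 17 to 32 when a replicate or a library was left out. Leaving out each H3K9me3 library in turn was chosen after seeing the data, and gave 31 without replicate 1 of the untreated condition. The splits of that count without it were chosen in the same way. Lost YY1 was 1 when at least 50% of the interval had to be covered, 8 with a peak in either replicate, and 4 to 8 when a replicate was left out. The OCT4 difference of -5 was -1 with a −log10 q of at least 5, with at least 50% covered and with peak lists cut to equal size. SVA-F with H3K9me3 in NCCIT numbered 0 with at least 50% covered and 14 when intervals were extended by 500 bp. Genes called were 1901 with length-scaled counts, 976 when a log2 change of 0.5 in either direction was also required, and 1396 to 3259 when a library was left out. Nearest genes called with length-scaled counts were 10 of 64 (9 lower, 1 higher, 15.6% beside 11.6% of all genes). That setting lost the calls of ZZZ3, SLMAP, TOX2, PLA2G6, HIGD1A and STIP1. With the log2 change of 0.5 also required, 8 of 64 were called, beside the 976 of 16371 genes. With protein-coding genes only, 30 of 113 tested were called (21 lower, 9 higher, 26.5% beside 17.5% of all genes). When a library was left out 8 to 17 were called, or 12.1% to 26.2%, beside 8.4% to 19.6% of all genes. Where fewer libraries, peaks or genes entered, the alternative itself changes the count, and otherwise the cause was not tested. DESeq2 called 2928 genes (11.8%) and 15 of 78 nearest genes (19.2%). No named gene reversed in any of the settings run. ABCC2, CORO1A, SRSF10, ADAMTS14, SLC30A10, ZMYND8, TRIML2 and STON1-GTF2A1L passed in all of them, apart from a filter of 10 counts in every library that removed ABCC2. TOX2 and HIGD1A lost their calls most often. Deviations of same-numbered RNA libraries correlated by 0.665 in replicate 1, and by -0.0598 and 0.0646 in replicates 2 and 3, over 5000 genes. Whether the replicate numbers pair the RNA samples was therefore not settled. The fit with the replicate block called 3316 genes (20.3%) and 18 of 64 nearest genes (28.1%, 14 lower, 4 higher). The peak counts have no fit that could take a block.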

Other observations

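Lists of genes fixed for the cell type and the repression machinery were read in the same RNA libraries. Of 14 genes of the KRAB and H3K9 machinery, all tested, MPHOSPH8, a subunit of the HUSH complex, fell (87.2, 89.5 and 81.7 CPM without doxycycline, 56.8, 51.8 and 54.3 with it, adjusted p = 0.000124, edgeR) and none rose. That is 1 of 14 lower, beside 8.48% of all genes tested, so it is a value of MPHOSPH8 and not of the list. TRIM28 and SETDB1 had log2 fold changes of -0.07 and -0.10 and did not pass. Of both zinc finger proteins known to bind SVAs, ZNF611 fell by 0.51 on the log2 scale, a call lost with length-scaled counts (-0.29), and ZNF91 had a change of -0.14 that did not pass.

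Of 10 pluripotency genes 6 fell, beside 8.48% of all genes tested, and none rose: NANOG, TDGF1, SALL4, PRDM14, ZFP42 and L1TD1. Of the 8 pluripotent markers, 4 fell, and their summed level was 1510 to 1660 TPM without doxycycline and 1180 to 1320 TPM with it. Of 11 markers of other cell types 8 were tested, GATA6 and NES rose, beside 8.97% of all genes tested, and none fell. SALL4 lost its call without any single library other than treated replicate 1 (-0.17 to -0.26) and with length-scaled counts (-0.16), and NES without untreated replicate 3 (0.42). The summed level of the 11 markers was 108 to 121 TPM without doxycycline and 128 to 170 TPM with it, most of it from NES alone (91.4 to 104 TPM, then 113 to 153), and 5 of the 11 were under 1 TPM in all libraries. The part of these shifts in the values of genes near SVA-F was not tested.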
